A study of Mus musculus with 4 samples.

Results

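A set of 9 genes that sense sterols or move them through the cell was followed in the embryonic mouse heart: the transcription factor genes Srebf1 and Srebf2, the escort gene Scap, the retention genes Insig1 and Insig2, the efflux pump gene Abca1, the lysosomal exit genes Npc1 and Npc2, and the transfer protein gene Stard4. They were taken by symbol from the 32285 genes of the count tables, where all 9 were found. Their counts were summed over the cells of each library that passed a marker gate for 1 lineage, and the sums were compared between gates and between genotypes.

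SREBP proteins are made as precursors in the membrane of the endoplasmic reticulum, where Scap binds them. When sterols are low, Scap carries them to the Golgi apparatus, where proteases free the part that enters the nucleus and switches on genes for sterol and fatty acid synthesis and for lipoprotein uptake. When sterols are plentiful, the Insig proteins hold Scap back, and oxysterols switch on LXR targets such as Abca1. Insig1 and Stard4 are themselves SREBP targets, whereas Insig2 is known to be little controlled by SREBP.

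The hearts came from C57BL/6J embryos at E10.5, of wild-type (Wt) genotype or homozygous for the I383V change in Cyp51 (Ho), the enzyme that removes a methyl group from lanosterol during cholesterol synthesis. CRISPR/Cas9 is the labelled treatment of both genotypes. There were 2 single-cell libraries per genotype, called Wt1, Wt2, Ho1 and Ho2, and the sources used here do not say how many hearts each holds. The tables held 109893733, 117034633, 127018819 and 107377100 unique molecular identifiers (UMIs, 1 per captured mRNA molecule) in that order, and 29168 cells were kept after filters and doublet removal, 8908, 7154, 6980 and 6126 per library.

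A cell entered a gate when it passed the threshold of 1 of 6 lineage genes and of no other. The gates held 9688 cells for Tnnt2 (cardiac troponin T), 969 for Cdh5 (VE-cadherin of endothelium), 3377 for Hapln1 (a matrix link protein of the cardiac cushions), 3240 for Crabp1 (a retinoic acid binding protein), 371 for Upk3b (a mesothelial plaque protein) and 686 for Epcam (epithelial adhesion). A further 4013 cells passed both the Cdh5 and the Hapln1 threshold and no other and were left out of both, so the Cdh5 gate is a minority of the Cdh5-positive cells. Ho1 stood apart: it held 32234 UMIs of Xist and none of Ddx3y, a Y-linked gene, while the other libraries held 2 to 5 of Xist and 2935 to 3388 of Ddx3y. It also had no cell in the Epcam gate and only 39 in the Crabp1 gate, against 2319, 488 and 394 in Wt1, Wt2 and Ho2. Any pair of libraries shared 9 to 28 cell barcodes.

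The gate's own marker list was the highest of the lists read, except in the Upk3b gate and in the Cdh5 and Crabp1 gates of Ho1. Over 7 cardiomyocyte genes, led by Myl7, the Tnnt2 gate held 46533 to 48890 CPM (UMIs per 1000000 of all UMIs) in the 4 libraries. The summed lists of the other gates were 1660 to 2650 CPM of 6 endothelial genes in the Cdh5 gate, 2550 to 2766 CPM of 6 cushion genes in the Hapln1 gate and 687 to 1564 CPM of 6 genes of Crabp1 mesenchyme in the Crabp1 gate. The Crabp1 gate of Ho1 went against its label: its 39 cells held 687 CPM of that list, 1263 CPM of the cushion list and 1207 CPM of the cardiomyocyte list. The 6 epicardial genes summed to 1928 to 2254 CPM in the Upk3b gate, which also held 2343 to 3866 CPM of the cardiomyocyte list, mostly Myl7. The 6 epithelial genes summed to 2679, 2528 and 2951 CPM in the Epcam gate of Wt1, Wt2 and Ho2. The 6 blood genes, led by Hba-x in Ho1, summed to 3.60, 8.17, 236 and 13.6 CPM in the Tnnt2 gate and to 55.1, 68.1, 1681 and 71.0 in the Cdh5 gate of Wt1, Wt2, Ho1 and Ho2, where the endothelial list of Ho1 was at 1660. Blood RNA was thus high in Ho1 alone, and its part in the results was not tested.

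The sequence before the start of a gene shows the letters that SREBP partners can bind. The bases nearest the start are not shown here, and 3 stretches further out are printed as examples, for Insig1, Srebf2 and Insig2. Each is 160 bases of a RefSeq promoter window on GRCm38.p6, from 250 to 91 bases before the annotated start, and capitals mark CCAAT (the NF-Y letters), GGGCGG (the Sp1 letters) and CACGTG (an E-box) on either strand. No 2 matches overlapped in them. They are Insig1 at chr5:28071162-28071321 on the plus strand, Srebf2 at chr15:82147019-82147178 on the plus strand, and Insig2 at chr1:121327769-121327928 on the minus strand, before the start at base 121327678.
Insig1: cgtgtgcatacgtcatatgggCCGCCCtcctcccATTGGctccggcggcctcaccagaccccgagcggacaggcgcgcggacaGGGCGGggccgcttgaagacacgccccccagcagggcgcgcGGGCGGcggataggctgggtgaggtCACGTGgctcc
Srebf2: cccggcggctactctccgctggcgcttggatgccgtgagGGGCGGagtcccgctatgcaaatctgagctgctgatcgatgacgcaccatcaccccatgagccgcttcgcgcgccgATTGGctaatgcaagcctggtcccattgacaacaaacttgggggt
Insig2: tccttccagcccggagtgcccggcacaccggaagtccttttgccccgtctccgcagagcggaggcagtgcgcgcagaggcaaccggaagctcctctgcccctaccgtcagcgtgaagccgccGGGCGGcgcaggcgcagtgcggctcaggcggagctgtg

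The Insig1 stretch held 1 CCAAT, 3 GGGCGG and 1 CACGTG. The Srebf2 stretch held 1 CCAAT and 1 GGGCGG, and the Insig2 stretch held 1 GGGCGG. Insig2 has 3 annotated starts in the table, and of the other stretches 1 held a CCAAT and no GGGCGG and 1 held no match. Among stretches of the same length from 32851 RefSeq windows, 21.5% held CCAAT, 18.1% GGGCGG and 3.14% CACGTG. The sterol response letters TCACNCCAC were in 0.639% of them and in no stretch of the 7 members with a window.

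UMIs of every member were found in all 23 sums, and most members differed between lineages. In edgeR's quasi-likelihood test over the 6 gates, with library as a block, 8 of 9 members differed at an adjusted p under 0.05, where 88.7% of all 13339 genes tested did, so the members' share was near the background. Scap was the exception (adjusted p = 0.528). Each gate was then set against the mean of the other 5. Of the 9 members, 6 were called in the Tnnt2 gate (65.5% of all genes), 4 in the Cdh5 gate (47.1%), 6 in the Hapln1 gate (41.8%), 2 in the Crabp1 gate (40.0%), 5 in the Upk3b gate (36.1%) and 4 in the Epcam gate (45.5%).

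**Figure D1:**
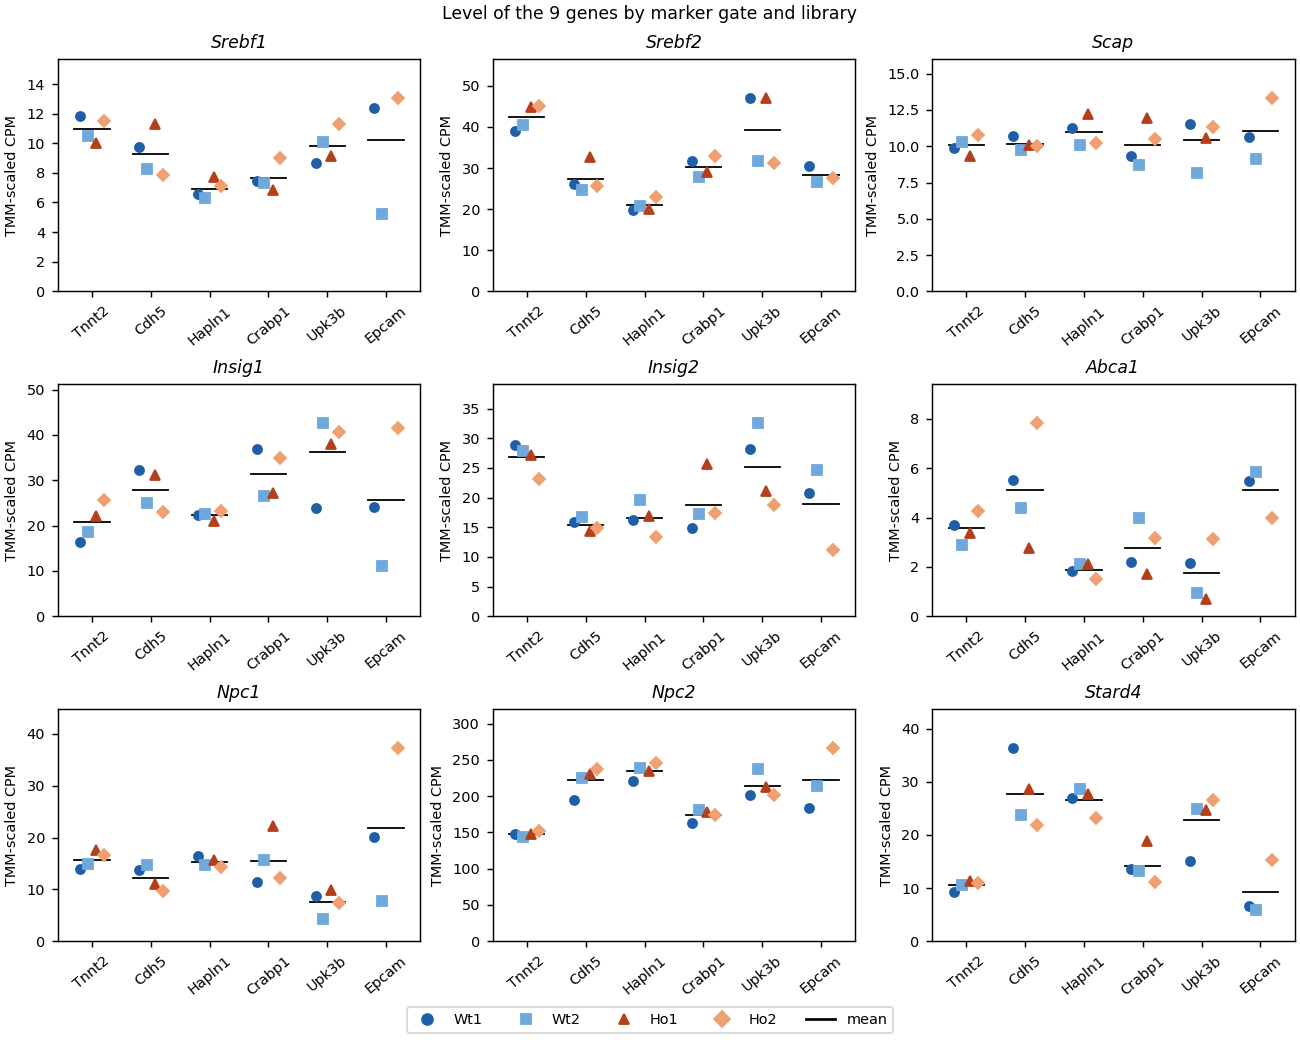
Level of each member in each gate, in CPM scaled by edgeR's TMM factors, with 1 point per library and a bar for the mean over libraries. By mean on this scale Srebf2 was highest in the Tnnt2 gate (39.1 to 45.0 CPM), overlapping the Upk3b gate (31.2 to 47.1 CPM), which came first when scaled to all UMIs, and Stard4 was low there (9.19 to 11.3 CPM), while Scap lay near 10 CPM in all gates.

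Levels from here on are CPM scaled by TMM, which sets the typical gene equal between sums. This matters for the Tnnt2 gate, where a few contractile genes take a large share of the UMIs: scaled to all UMIs instead, the median of all genes in the Tnnt2 gate against the others was −0.26 on the log2 scale, and it was 0.01 with TMM. Differences between gates are log2 differences relative to the typical gene. Levels of different members are not compared, since counts from the 3′ end are not set per length.

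Srebf2, the SREBP gene best known for sterol synthesis, was highest by mean in cardiomyocyte-gated cells. Its level in the Tnnt2 gate was 39.1, 40.5, 44.9 and 45.0 CPM in Wt1, Wt2, Ho1 and Ho2. In the Hapln1 gate it was 19.9, 20.7, 20.1 and 23.0 CPM. The libraries of these gates did not overlap, and the Tnnt2 gate was higher than the others by 0.56 (SE 0.075, adjusted p = 1.21e-06) while the Hapln1 gate was lower, at −0.66 (SE 0.086, adjusted p = 2.39e-06). Both calls held in all 16 alternatives. The order from high to low was Tnnt2, Upk3b (39.2 ± 8.999, SD, n = 4), Crabp1 (30.4 ± 2.37), Epcam (28.2 ± 2.03, n = 3), Cdh5 (27.3 ± 3.64) and Hapln1 (20.9 ± 1.43), and only the last neighbours, Cdh5 and Hapln1, did not overlap. Scaled to all UMIs, the Tnnt2 difference was 0.28 and the Upk3b gate came first. The Upk3b gate was also above the others, by 0.38 (adjusted p = 0.00598), although its libraries spanned 31.2 to 47.1 CPM, and this call was lost without Wt1 (0.29, adjusted p = 0.0780).

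Srebf1, whose products mainly drive fatty acid synthesis, was also highest by mean in the Tnnt2 gate. In the Tnnt2 gate it was at 11.8, 10.49, 10.0 and 11.5 CPM, and in the Hapln1 gate at 6.58, 6.31, 7.70 and 7.12 CPM, again without overlap. The Hapln1 gate was lower than the others by test (log2 difference −0.48, adjusted p = 0.00201), a call that held in 14 of 15 alternatives (adjusted p up to 0.0648). The Tnnt2 difference of 0.30 (SE 0.10, adjusted p = 0.0122) fell to 0.03 (adjusted p = 0.84) when scaled to all UMIs, and the call was also lost without Wt1 and without Wt2. Its order was Tnnt2, Epcam (10.2 ± 4.36), Upk3b (9.80 ± 1.17), Cdh5 (9.29 ± 1.57), Crabp1 (7.64 ± 0.926) and Hapln1 (6.93 ± 0.617), and every pair of neighbours overlapped.

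Scap, the escort, was the even member. Its gate means spanned 10.1 CPM in the Tnnt2 gate (± 0.620) to 11.0 CPM in the Epcam gate (± 2.15), every pair of neighbours in the order overlapped, and no gate was called against the others.

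The retention genes ran in opposite directions in cardiomyocyte-gated cells. Insig2 was at 28.9, 27.9, 27.1 and 23.2 CPM in the Tnnt2 gate and at 15.9, 16.7, 14.4 and 14.8 CPM in the Cdh5 gate, with no overlap. The Tnnt2 gate exceeded the others by 0.57 (SE 0.096, adjusted p = 2.42e-05), the Upk3b gate by 0.45 (adjusted p = 0.0149), and the Cdh5 and Hapln1 gates were lower, at −0.40 (adjusted p = 0.0172) and −0.27 (adjusted p = 0.0497). The Tnnt2 call of Insig2 held in all 16 alternatives, with 0.29 when scaled to all UMIs, the Upk3b call in 13 of 16, the Cdh5 call in 12 of 16 and the Hapln1 call in 6 of 16 (adjusted p up to 0.155). Leaving out Wt1, Wt2 or Ho1 lost the Cdh5 call, leaving out Wt1 or Wt2 lost the Upk3b call, and leaving out any 1 library lost the Hapln1 call. Insig1 was at 16.5, 18.6, 22.2 and 25.5 CPM in the Tnnt2 gate, the lowest gate by mean (20.7 ± 4.00), and at 23.8, 42.7, 38.0 and 40.6 CPM in the Upk3b gate, the highest (36.3 ± 8.52). The Tnnt2 gate was lower than the others for Insig1 (log2 difference −0.49, SE 0.14, adjusted p = 0.00457), and the Upk3b gate was higher (0.51, adjusted p = 0.0320). The first of these held in all 16 alternatives and the second in 12, with the call lost without Wt2 or Ho1. Between them the order of Insig1 was Crabp1 (31.4 ± 5.28), Cdh5 (27.9 ± 4.51), Epcam (25.6 ± 15.3) and Hapln1 (22.3 ± 0.932). For both genes all neighbours overlapped. For Insig2 the order was Tnnt2, Upk3b, Epcam (18.9 ± 6.93), Crabp1 (18.8 ± 4.70), Hapln1 (16.5 ± 2.56) and Cdh5 (15.5 ± 1.06).

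Stard4, a soluble carrier that shuttles cholesterol between membranes, was high in the Cdh5, Hapln1 and Upk3b gates and low in the Tnnt2 and Epcam gates. In the Tnnt2 gate it was at 9.19, 10.6, 11.3 and 11.0 CPM. In the Cdh5 gate it was at 36.4, 23.8, 28.7 and 21.8 CPM, and in the Hapln1 gate at 27.0, 28.7, 27.7 and 23.3 CPM. The lowest library of either gate was above the highest of the Tnnt2 gate. The Tnnt2 gate was lower than the others (−0.83, SE 0.14, adjusted p = 2.34e-05) and so was the Epcam gate (−0.90, SE 0.23, adjusted p = 0.00272), where Stard4 was at 6.62 CPM in Wt1, 5.85 in Wt2 and 15.2 in Ho2. The Cdh5 gate was higher by 0.84 (adjusted p = 0.000136), the Hapln1 gate by 0.77 (adjusted p = 6.75e-05) and the Upk3b gate by 0.54 (adjusted p = 0.0259), and the Crabp1 gate was lower (−0.42, adjusted p = 0.0475). The Tnnt2, Cdh5, Hapln1 and Epcam calls held in all 15 alternatives in which each was tested, the Upk3b call in 11 of 15 and the Crabp1 call in 8 of 15, where it went as near to 0 as −0.22 (adjusted p = 0.31) without Ho2. Neighbours overlapped all along the order Cdh5, Hapln1, Upk3b (22.8 ± 5.17), Crabp1 (14.2 ± 3.24), Tnnt2 (10.52 ± 0.928) and Epcam (9.22 ± 5.20).

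Npc2, the soluble lysosomal protein that hands cholesterol to Npc1, was high in endothelial and cushion gates and lowest in the Tnnt2 gate. Its level there was 147, 144, 148 and 152 CPM, against 221, 239, 234 and 246 CPM in the Hapln1 gate, and the log2 difference of the Tnnt2 gate from the others was −0.52 (SE 0.061, adjusted p = 1.75e-07). The Hapln1 gate (0.28, adjusted p = 0.000471) was higher than the others, as were the Cdh5 and Epcam gates (0.18 each, adjusted p = 0.0184 and 0.037), and the Crabp1 gate was lower (−0.24, adjusted p = 0.00457). The Tnnt2 and Hapln1 calls held in all 16 alternatives, the Crabp1 call in 14, the Cdh5 call in 13 (lost without Ho1) and the Epcam call in 9, with 0.039 (adjusted p = 0.782) without Ho2. The order was Hapln1 (235 ± 10.7), Cdh5 (222 ± 18.9), Epcam (222 ± 42.1), Upk3b (213 ± 16.9), Crabp1 (174 ± 7.90) and Tnnt2 (148 ± 3.30), with no overlap between Upk3b and Crabp1 or between Crabp1 and Tnnt2.

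Npc1, the membrane protein that passes cholesterol out of the lysosome, had a single low gate. It was at 8.67, 4.32, 9.84 and 7.42 CPM in the Upk3b gate, from 9 to 19 UMIs a library, and the log2 difference from the others was −1.13 (SE 0.30, adjusted p = 0.00536), a call kept in the 15 alternatives in which it was tested. The other gates had means of 12.2 ± 2.34 (Cdh5), 15.3 ± 0.991 (Hapln1), 15.4 ± 4.90 (Crabp1), 15.7 ± 1.64 (Tnnt2) and 21.8 ± 14.8 CPM (Epcam), and all neighbours overlapped. The Epcam gate was called higher by 0.95 (SE 0.23, adjusted p = 0.00203), but its 3 libraries were at 20.1, 7.80 and 37.4 CPM, and the difference was 0.33 (adjusted p = 0.386) without Ho2.

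Abca1, the pump that loads cholesterol onto apolipoprotein A-I, was counted in only 1 to 156 UMIs per sum. It was at 5.53, 4.40, 2.75 and 7.85 CPM in the Cdh5 gate and at 1.82, 2.10, 2.14 and 1.51 CPM in the Hapln1 gate, which did not overlap. The Cdh5 gate was higher than the others by 0.82 (SE 0.25, adjusted p = 0.0107), the Epcam gate by 0.76 (adjusted p = 0.0447), and the Hapln1 gate was lower (−0.78, adjusted p = 0.00927). Of 15 alternatives the Cdh5 gate was called in 10, in 2 of them in the opposite direction, and Hapln1 call held in 11 and the Epcam call in 9. Leaving out Wt1 or Ho2 lost the Cdh5 call, Ho2 the Hapln1 call, and Wt1 or Wt2 the Epcam call. The Cdh5 call depended on which endothelial cells were taken: with the cells past both Cdh5 and Hapln1 added to the gate, the difference was −0.66 (adjusted p = 0.0139). Those cells alone held 1.10 ± 0.430 CPM of Abca1 over the 4 libraries, on the scale of all UMIs. The order was Cdh5 (5.13 ± 2.14), Epcam (5.11 ± 0.974), Tnnt2 (3.56 ± 0.583), Crabp1 (2.76 ± 1.01), Hapln1 (1.89 ± 0.294) and Upk3b (1.74 ± 1.12), and neighbours overlapped throughout.

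**Figure D2:**
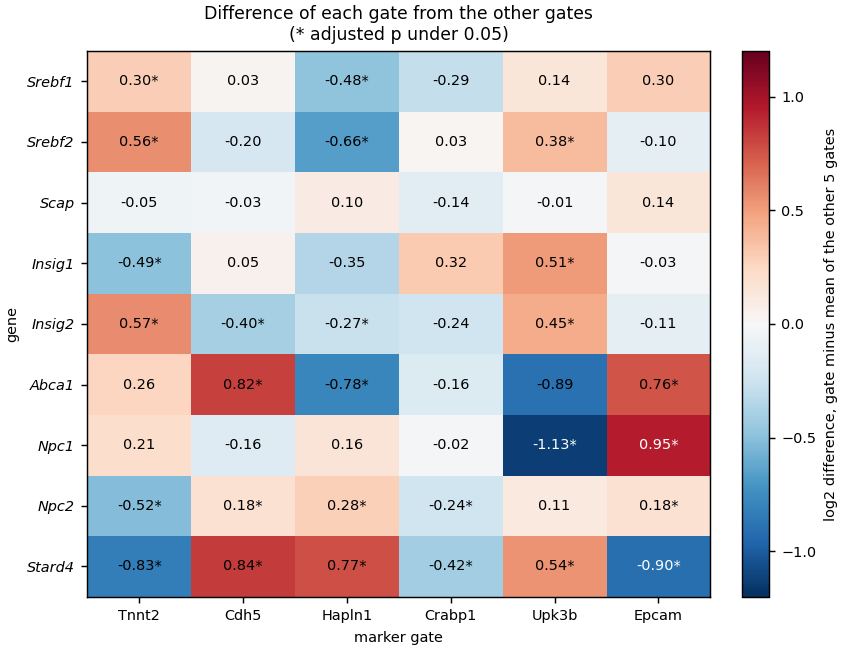
Log2 difference of each gate from the mean of the other 5, 1 row per member and 1 column per gate, with called values marked. In the Tnnt2 column Srebf2 (0.56), Insig2 (0.57) and Srebf1 (0.30) were above 0, and Insig1 (−0.49), Npc2 (−0.52) and Stard4 (−0.83) were below.

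Among the members, the levels of Npc2 and Stard4 went together most closely over the 23 sums (Pearson's r = 0.580), followed by Srebf2 and Insig2 (r = 0.563), and Srebf2 and Npc2 were the most opposed (r = −0.622). The sums share libraries and lineages, so these are descriptions. By the same measure the 2 genes most like each member, among 7791 genes searched, were named. For Stard4 they were Arpc1b (r = 0.926) and Cdc42ep1 (0.911). For Npc2 they were Nedd9 (0.898) and Gusb (0.863), the latter a lysosomal enzyme gene. For Insig2 they were Card19 (0.866) and 2700046G09Rik (0.856). These 3 members had the closest matches, at or above 0.866. Srebf2 was followed most closely by Prelid2 (0.855) and Cdk2ap2 (0.846). Insig1 was followed by Nap1l1 (0.813) and Exosc8 (0.806), and Abca1 by Mfge8 (0.812) and Frat2 (0.765). Srebf1 had Plagl2 (0.806) and Msmo1 (0.786), a sterol synthesis gene of the SREBP2 target list. Npc1 had Brd7 (0.775) and Rmi1 (0.760). Scap, the even member, had the weakest matches, Wdr43 (0.598) and Cd2bp2 (0.596).

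The genotype comparison asked whether cells with the Cyp51 change differ in these genes, and in cardiomyocyte-gated cells no member passed the adjusted threshold. edgeR called 0 of 9 members in the Tnnt2 gate, where it called 0.0% of 14579 genes. At an unadjusted p under 0.05 there were 2 of 9 members, Insig1 and Npc1, against 6.37% of all genes, and DESeq2 called 20 genes in this gate with no member among them. The members' median log2 fold change was 0.15, with 6 of 9 above 0, beside 0.00 for all genes.

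Insig1 gave the largest difference of the 9 in this gate. Its counts were 276 and 654 UMIs in Wt1 and Wt2 and 1028 and 930 in Ho1 and Ho2, or 16.5, 18.6, 22.2 and 25.5 CPM. The genotypes did not overlap, with means of 23.9 ± 2.40 and 17.5 ± 1.50 CPM (SD, n = 2 each). The log2 fold change was 0.42 (SE 0.11), with an unadjusted edgeR p of 0.00407 and an adjusted p of 0.58 over all genes. Over 17 alternatives the fold change ranged from 0.32 to 0.53 and the adjusted p from 0.0152, with no filter on low counts, to 1.0. The fold change was 0.35 without Wt1, 0.53 without Wt2, 0.52 without Ho1 and 0.32 without Ho2. The median share of mitochondrial counts in these cells was 1.36%, 1.46%, 1.57% and 2.11% in Wt1, Wt2, Ho1 and Ho2 and followed the same order as Insig1. So did their median depth, at 12067, 17154, 17363 and 18247 UMIs per cell. The part of either in the difference was not tested. The 6 macrophage genes summed to 11.0, 18.5, 19.0 and 12.9 CPM of all UMIs there, led by Lyz2, and did not follow that order.

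Other members of the gate moved less. Srebf2 was at 39.1 and 40.5 CPM in Wt and at 44.9 and 45.0 CPM in Ho, without overlap, with a log2 fold change of 0.16 (SE 0.084, adjusted p = 0.787). Npc1 was at 14.0 and 14.8 CPM in Wt and at 17.6 and 16.6 CPM in Ho, a log2 fold change of 0.23 (SE 0.098, adjusted p = 0.779). Stard4, at 9.19 and 10.6 against 11.3 and 11.0 CPM, gave 0.15 (SE 0.12, adjusted p = 0.865). Insig2 went the other way without passing the test, at 28.9 and 27.9 CPM in Wt and 27.1 and 23.2 in Ho, or −0.19 (SE 0.10, adjusted p = 0.807). Npc2 gave 0.03 (SE 0.078), Scap −0.03, Srebf1 −0.06 and Abca1 0.22 (SE 0.20). In all, the 2 Ho libraries lay above the 2 Wt libraries for 5 members, Npc2 included, as for 21.0% of all genes, and below them for Insig2 alone, as for 16.4% of all genes.

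**Figure D3:**
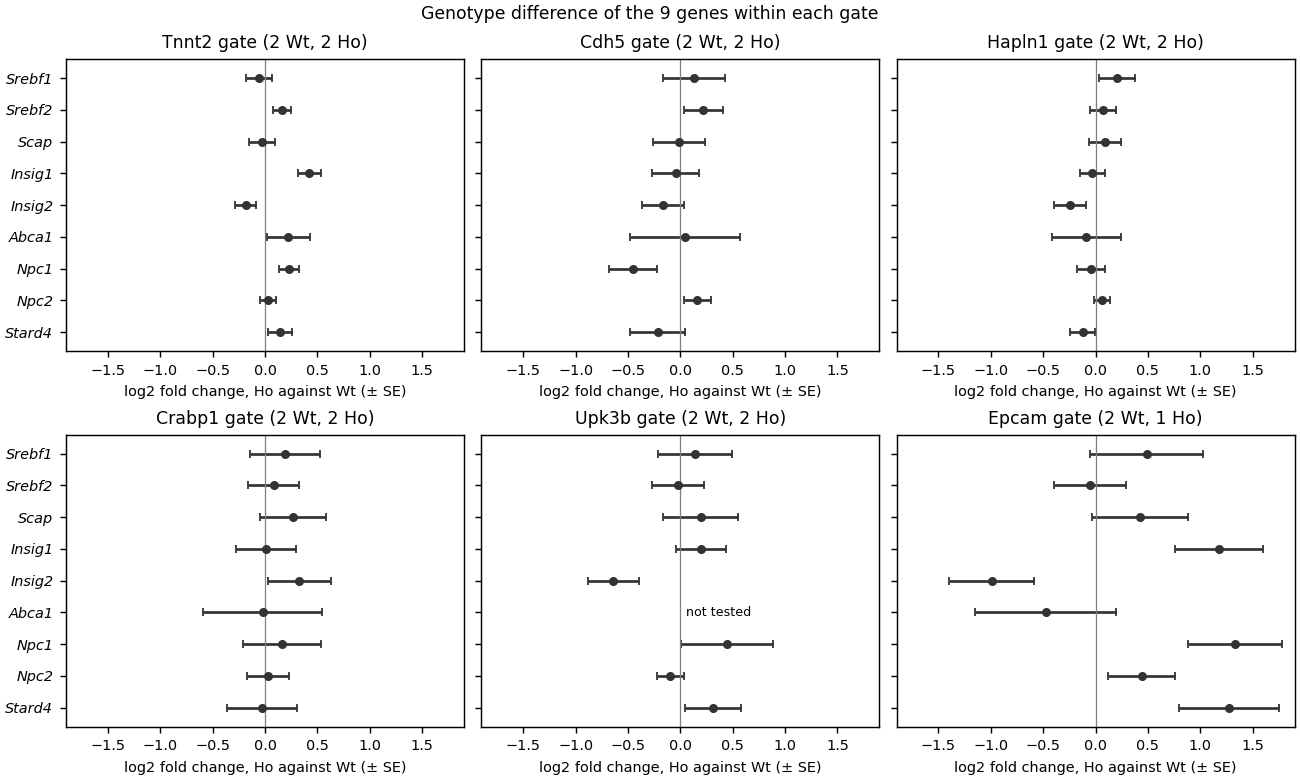
Log2 fold change of Ho over Wt for each member in each gate, with bars of 1 SE from the edgeR fit. No value passed the adjusted threshold; in the Tnnt2 gate Insig1 lay highest at 0.42, and the widest values were in the Epcam gate, which compares 2 Wt libraries with 1 Ho library.

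Of the unsupervised clusters of all kept cells, 6 were assigned to the Tnnt2 marker, which are not subdivisions of the gate, and Insig1 was the member with the same arrangement in each of them. The Ho libraries were the 2 highest in 6 of 6 clusters for Insig1, in 3 for Npc1 and Stard4, in 2 for Srebf2, Npc2 and Scap, and in 0 for Srebf1, Insig2 and Abca1. Of all 14579 genes, 0.178% had this arrangement in all 6 clusters, 8.6% in at least 3 and 27.0% in at least 2. The clusters share libraries and are not independent. In cluster 17, for example, Insig1 was at 7.16, 9.36, 13.3 and 13.1 CPM of all UMIs in Wt1, Wt2, Ho1 and Ho2, and in cluster 22 at 19.7, 21.4, 22.9 and 30.9 CPM. Cluster 26 gave 2.23 CPM, a single UMI, in Wt1 and 12.0, 22.8 and 16.6 CPM in the others. The Ho libraries were the 2 lowest in 2 clusters for Scap and Insig2 and in 1 for Npc1, while 25.5% of all genes had this in at least 2 clusters and 59.0% in at least 1. Clusters assigned to other markers differed for Insig1. The Ho libraries were the 2 highest in 1 of 2 Hapln1 clusters, 0 of 5 Cdh5 clusters and 0 of 1 Upk3b cluster. They were the 2 lowest in the other Hapln1 cluster and in the 2 Crabp1 clusters with 4 libraries, where Ho1 held 1 and 5 UMIs.

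**Figure D4:**
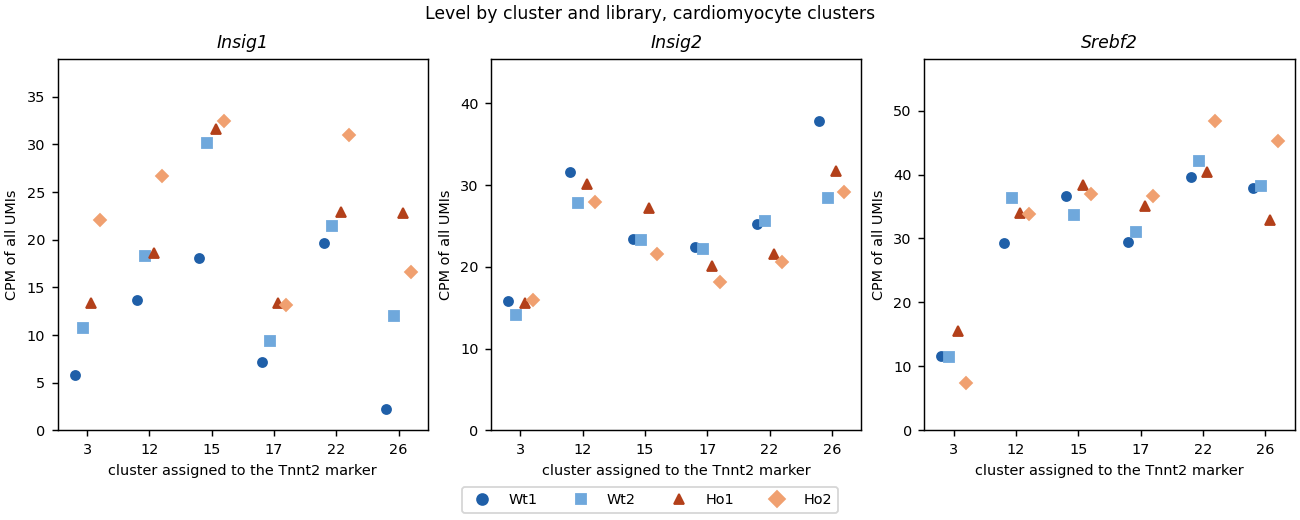
Levels of Insig1, Insig2 and Srebf2 in each library within the 6 clusters assigned to the Tnnt2 marker, in CPM of all UMIs, 1 point per library. For Insig1, in each cluster the 2 Ho points lie above the 2 Wt points, from 13.3 and 22.0 over 5.81 and 10.7 CPM in cluster 3 to 31.6 and 32.5 over 18.1 and 30.2 CPM in cluster 15, and for Insig2 and Srebf2 the genotypes overlap in most clusters.

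In the other gates with 4 libraries no member was called between genotypes by edgeR or DESeq2. The share of all genes called by edgeR was 0.0% in the Cdh5 gate, 0.0238% in the Hapln1 gate, 0.0% in the Crabp1 gate and 0.0441% in the Upk3b gate. At an unadjusted p under 0.05 there were 0 of 9 members in the Cdh5 gate (2.17% of all genes), 0 in the Hapln1 gate (5.55%), 0 in the Crabp1 gate (1.3%) and 1 of 8 in the Upk3b gate (4.51%), where Abca1 was too low to test. Insig1 gave −0.04 (SE 0.22) in the Cdh5 gate, −0.03 (SE 0.12) in the Hapln1 gate, 0.01 (SE 0.28) in the Crabp1 gate and 0.20 (SE 0.24) in the Upk3b gate. Its libraries overlapped in all 4, and these errors leave room for a difference of the size seen in the Tnnt2 gate in the Cdh5, Crabp1 and Upk3b gates. The member of the Upk3b gate was Insig2, at 28.2 and 32.6 CPM in Wt and 21.1 and 18.7 CPM in Ho (log2 fold change −0.64, SE 0.24, adjusted p = 0.984), from 30 to 68 UMIs a library.

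Few members had libraries that did not overlap between the genotypes in these gates, and each is given with the share of all genes that did the same. In the Cdh5 gate Npc2 was higher in both Ho libraries (14.2% of all genes were) and Insig2 and Npc1 were lower (15.0%). In the Hapln1 gate Srebf1 was higher (17.7%) and no member was lower (17.2%). In the Crabp1 gate Scap and Insig2 were higher (13.3%) and none was lower (15.7%), with Scap in Ho1 resting on 7 UMIs and Insig2 on 15. No member was called in that gate without Ho1 either. In the Upk3b gate none of the 8 was higher (16.5%) and Insig2 was lower (16.1%).

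The widest genotype values were in the Epcam gate, which has 308 cells of Wt1, 140 of Wt2 and 238 of Ho2. Insig1 was at 24.2 CPM in Wt1, 11.0 in Wt2 and 41.6 in Ho2 (84, 17 and 156 UMIs), with a log2 fold change of 1.18 (SE 0.42, adjusted p = 0.533). Npc1 was at 20.1, 7.80 and 37.4 CPM (1.33, SE 0.45, adjusted p = 0.493). Stard4 was at 6.62, 5.85 and 15.2 CPM (1.27, SE 0.48, adjusted p = 0.578). The Ho2 value was above both Wt values for these members and for Npc2, Scap and Srebf1. The share of all genes that did the same was not tabulated for this gate, so nothing is read from how many members did. Abca1 was below both, at 4.00 CPM beside a Wt mean of 5.66 ± 0.268 (SD). Insig2 was below both, at 20.7, 24.7 and 11.2 CPM (−0.99, SE 0.40, adjusted p = 0.664), and Srebf2 gave −0.05 (SE 0.35). None was called, where 0.425% of 11766 genes were. At an unadjusted p under 0.05 there were 4 of 9 members, against 6.6% of all genes. With 1 Ho library these p-values use only the spread between the 2 Wt libraries, so nothing is read from that count. Leaving out genes with low counts mattered for Npc1, which was called with no filter (adjusted p = 0.028).

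Of the unsupervised clusters of all kept cells, 2 were assigned to the Epcam marker, and the libraries filled them unequally. These clusters are not the gate, whose own make-up by cluster was not tabulated. Cluster 23 held 429 cells of Wt1, 74 of Wt2 and 227 of Ho2, and cluster 24 held 76, 107 and 39. In cluster 23 Insig1 was at 27.0, 9.64 and 45.6 CPM of all UMIs, and Insig2 at 19.98, 26.2 and 9.54 CPM. In cluster 24 Insig1 was at 6.00, 13.0 and 13.0 CPM, and Insig2 at 32.0, 41.5 and 28.7 CPM. Insig1 was thus higher in cluster 23 in Wt1 and Ho2 and lower in Wt2, while Insig2 was lower there in all 3 libraries. With 1 Ho library, differences in the make-up of a library and its genotype cannot be told apart. Depth in the gate differed as well, with medians of 8894, 7370 and 14111 UMIs per cell.

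Whether the genotype difference itself varied between gates was tested as an interaction over the 23 sums. No member was called, as 0.015% of 13339 genes were. At an unadjusted p under 0.05 there were 3 of 9 members, Insig2, Npc1 and Stard4, against 3.68% of all genes. These 3 were not all kept when any 1 library was left out, be it Ho2, the only Ho library in the Epcam gate, or another. With no filter on low counts Npc1 was called (adjusted p = 0.00687), and over the other alternatives its adjusted p was 0.717 to 1.0.

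Genes around the members were read from 5 lists. The SREBP2 targets, 22 genes of sterol synthesis and lipoprotein uptake, were mostly higher in the Tnnt2 gate, where their median log2 difference from the others was 0.34, and lower in the Hapln1 gate, where it was −0.52, beside 0.01 for all genes in both. Of the 21 tested, 13 were called higher and 1 lower in the Tnnt2 gate, and 1 higher and 15 lower in the Hapln1 gate. The share of all genes called in either direction was 65.5% in the Tnnt2 gate and 41.8% in the Hapln1 gate, so the count of calls in the Tnnt2 gate was near the background. Hsd17b7, a sterol ketoreductase, was at 31.9 to 35.7 CPM in the Tnnt2 gate (log2 difference from the others 1.51, adjusted p = 4.89e-11). Of the 14 fatty acid targets of SREBP1, 9 were called higher and 3 lower in the Tnnt2 gate, led by Acacb, the mitochondrial acetyl-CoA carboxylase (3.01, adjusted p = 1.93e-12), and Me1, malic enzyme, was lowest in the Cdh5 gate (−3.05, adjusted p = 8.07e-08). Of the 26 other transport and storage genes, 15 were higher and 5 lower in the Tnnt2 gate, where the caveolin gene Cav1 (4.06, adjusted p = 3.62e-14) and Gramd1b, which brings cholesterol from the plasma membrane to the endoplasmic reticulum (3.02, adjusted p = 1.33e-11), stood highest. Both counts are set against the same 65.5% of all genes.

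The list of ubiquitin ligases and proteases that process SREBP or turn over its partners had 11 of 13 tested genes called over the 6 gates, where 88.7% of all genes were. In the Tnnt2 gate 4 were higher and 2 lower (65.5% of all genes called), among them March6, a ligase for squalene epoxidase (0.84, adjusted p = 2.01e-08), and Rnf145, a ligase for Scap, was lower in the Cdh5 gate (−0.84, adjusted p = 3.13e-06). Of 9 LXR genes tested, 4 were higher and none lower in the Cdh5 gate (47.1% of all genes called). Apoe, the lipoprotein gene, led them (2.91, adjusted p = 2.28e-12) at 634 to 959 CPM there. Its level in the Hapln1 gate, 608 to 716 CPM, overlapped that range. Smpdl3a, a lipid phosphodiesterase, was lower in the Upk3b gate (−2.68, adjusted p = 0.000121).

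Between genotypes, no gene of the 5 lists was called in a gate with 4 libraries. In the Tnnt2 gate the median log2 fold change was 0.07 for the SREBP2 targets (16 of 21 above 0), 0.15 for the SREBP1 targets (13 of 14), 0.05 for the processing genes (9 of 13), −0.04 for the LXR genes (4 of 10) and 0.06 for the transport genes (15 of 26), beside 0.00 for all genes, of which 50.7% were above 0. Lss, the cyclase that makes lanosterol, gave 0.26, Lpin1 0.24 and Scd1 0.22, all with an SE of at least 0.16. Gramd1b was at 8.83 and 10.1 CPM in Wt and 13.0 and 11.8 in Ho (0.36, SE 0.12, adjusted p = 0.691), and Stard5, a relative of Stard4, gave −0.28 (SE 0.12). Rnf139, a ligase of the endoplasmic reticulum, gave 0.23 (SE 0.11), and of the LXR genes Smpdl3a gave −0.28 (SE 0.13) and Abcg5 −0.72 (SE 0.47) on 8 to 17 UMIs a library.

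In the Epcam gate all 22 SREBP2 targets lay above 0 in the 1 Ho library, where 48.3% of all genes did. Their median was 0.91 beside −0.02 for all genes. The limits of 1 Ho library given above hold here as well.

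**Figure D5:**
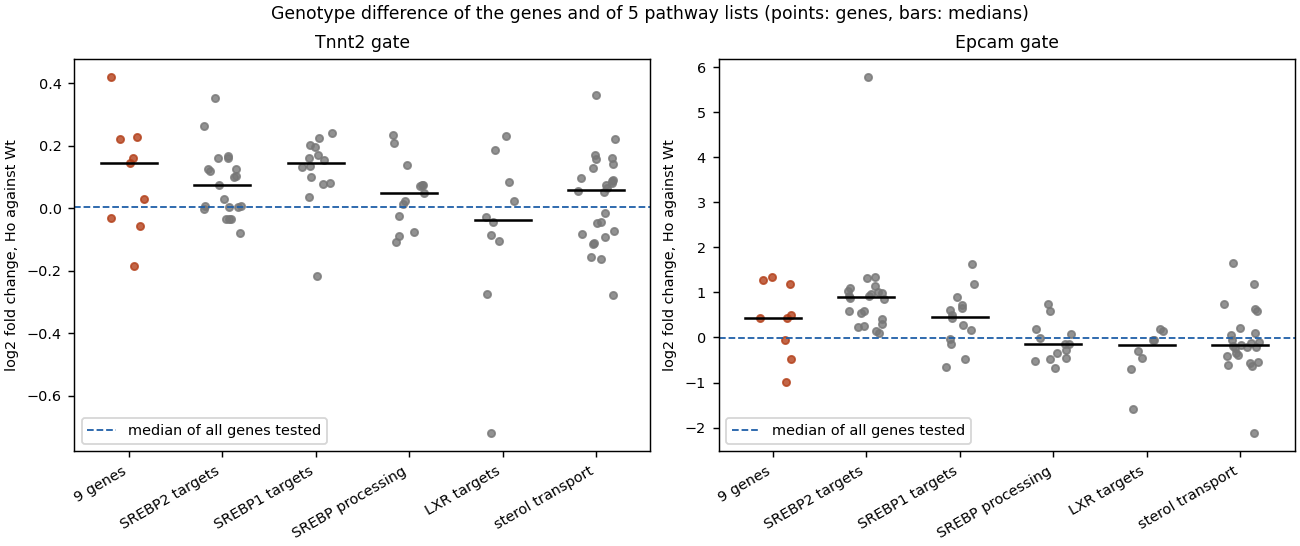
Log2 fold change of Ho over Wt in the Tnnt2 gate (left) and the Epcam gate (right) for the 9 members and every tested gene of the 5 lists, 1 point per gene, with a bar at each median and a dashed line at the median of all genes. In the Tnnt2 gate the list medians lie between −0.04 for the LXR genes and 0.15 for the SREBP1 targets. In the Epcam gate, with 1 Ho library, all SREBP2 targets lie above 0, where 48.3% of all genes do.

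In the mouse genome GRCm38 with GENCODE M21, the members lie at separate loci. Srebf1 (ENSMUSG00000020538) is at chr11:60199089-60222581 and Insig2 (ENSMUSG00000003721) at chr1:121304353-121332589, both on the minus strand, and Insig1 (ENSMUSG00000045294) at chr5:28071363-28078662, Srebf2 (ENSMUSG00000022463) at chr15:82147181-82205379 and Scap (ENSMUSG00000032485) at chr9:110333288-110384950 are on the plus strand. Abca1 (ENSMUSG00000015243) at chr4:53030787-53159895, Npc2 (ENSMUSG00000021242) at chr12:84754562-84773152, Npc1 (ENSMUSG00000024413) at chr18:12189692-12236400 and Stard4 (ENSMUSG00000024378) at chr18:33199355-33213862 are on the minus strand.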

How the data were processed

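Cells of E10.5 hearts were counted in a droplet assay that reads the 3′ end of transcripts. Per the file headers and the submitters' processing notes, the authors aligned reads to mm10 (GRCm38) with Cell Ranger 6.1.1 and deposited raw UMI counts for 33589 barcodes called as cells, without normalization; the notes also name Seurat 4.1.0. Kept barcodes had 500 to 6000 genes, 500 to 50000 UMIs and no more than 20% of mitochondrial counts, and Scrublet (scanpy 1.11.5) took out 1984 doublets, at 0.8% per 1000 cells. A cell passed a gate with at least 2 UMIs of the marker and a level above Otsu's threshold over kept cells; 5272 cells past several gates and 5565 past none were left out. The median depth was 10561, 14216, 15658 and 15832 UMIs per kept cell in Wt1, Wt2, Ho1 and Ho2.

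Counts were summed per library and gate (23 sums of at least 20 cells) and tested with edgeR 4.0.16 in R 4.3.3, by the quasi-likelihood test after TMM scaling and filterByExpr, with p-values adjusted by Benjamini-Hochberg over all genes and a threshold of 0.05. Fits between gates had the library as a block, and fits between genotypes used the sums of 1 gate without a block. The script was tested on simulated data. Nothing says that libraries of a genotype came from separate litters, so p-values measure the spread between these libraries, which may be technical. Replicate numbers did not pair the libraries.

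The members, gates and lists were chosen with earlier results of these data known. Named list genes were those called between genotypes, else the 2 with the largest change in the Tnnt2 gate, and the 2 with the largest called difference between gates; some that this rule names are not reported here. Likeness was Pearson's r over the sums among genes with a mean of at least 10 CPM, and unsupervised clusters were made with the Leiden algorithm at a resolution of 1. Alternatives were DESeq2 1.42.0, RLE or no scaling beyond all UMIs, other filters on counts, cells and doublets, other gates, Wt libraries only, a replicate block and leaving out each library.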

Additional observations from a re-analysis of the deposited data

Results flagged for a closer look

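Among the 45 sets of 4 library values (9 members in 5 gates), 2 had a library far from the rest by Dixon's test at the 95% level, which chance gives for about 1 set in 20. Srebf2 in the Cdh5 gate was highest in Ho1, at 32.7 CPM, against 24.8 to 26.0 CPM in the other libraries. Ho1 was also the library with high blood gene counts in that gate, 1681 CPM over the 6 blood genes, and their part in the value was not tested. Stard4 in the Upk3b gate was lowest in Wt1, at 15.2 CPM, against 24.6 to 26.6 CPM in the others, and Wt1 was the library with the shallowest cells.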

How the results depend on the processing

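With 2 libraries per genotype and few cells in the Upk3b and Epcam gates, the genotype tests had little room, and sparse members such as Abca1 rest on few UMIs. Of 952 repeats of single results, 871 kept their direction and side of the threshold, 69 lost the call, 2 gained it and 10 changed direction; the cause was not tested. Direction changed for Abca1 in the Cdh5 gate (−0.26 with cells past several gates assigned, −0.52 with gates by cluster, −0.66 with Cdh5 and Hapln1 cells added, the last chosen after seeing the data). Between genotypes in the Tnnt2 gate it changed for Srebf1 (0.02 without Wt1, 0.048 without Ho1, −0.16 to 0.048 over the left-out libraries), Scap (0.018 with doublets kept, 0.0095 without Wt2, 0.073 without Ho1, −0.13 to 0.073 over them) and Scd1 (−0.35 without Wt2, −0.26 without Ho2, −0.35 to 0.84 over them).

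The number of members differing between gates was 4 with at least 10 counts in every sum, where fewer genes are tested, and 7 to 8 without 1 library. Against the other gates, leaving out a library gave 5 to 6 called members in the Tnnt2 gate, 2 to 3 in Cdh5, 4 to 6 in Hapln1, 1 to 2 in Crabp1, 2 to 7 in Upk3b and 2 to 4 in Epcam. With at least 10 counts in every sum there were 2 in Cdh5, 1 in Crabp1, 3 in Upk3b and 1 in Epcam. With Wt libraries only there were 2 in Cdh5, 3 in Hapln1, 1 in Crabp1, 3 in Upk3b and 2 in Epcam. Crabp1 had 1 with scaling to all UMIs or doublets kept, Upk3b 2 with thresholds halved, and Epcam 2 with no filter. Scaled to all UMIs, a choice added after seeing the data, 3 of 9 members kept their highest gate, and thresholds halved or doubled kept it for 8, gates by cluster for 6.

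Between genotypes, no filter on low counts gave 1 called member in the Tnnt2 gate, 1 in the Epcam gate and 1 in the interaction, and no other alternative gave any. It called 206, 48, 151, 110, 70 and 288 genes in the Tnnt2, Cdh5, Hapln1, Crabp1, Upk3b and Epcam gates, against 0, 0, 3, 0, 4 and 50 with the filter. DESeq2 called 20, 0, 14, 0, 0 and 17. In the Tnnt2 gate the count was 110 without Ho2, 82 without Ho1, 5 without Wt2 and 1 without Wt1. List genes called in the Epcam gate numbered 2 scaled to all UMIs, 3 with no filter, and 0 with thresholds halved or doubled, doublets kept or DESeq2. In the Upk3b gate leaving out a library gave 0 to 1, the 1 without Ho2.

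With the replicate number as a block, 0 members were called in any gate, and 8, 0, 7, 0 and 0 genes in the Tnnt2, Cdh5, Hapln1, Crabp1 and Upk3b gates. Deviations of same-numbered libraries correlated at −0.042, −0.027, −0.0074, −0.18 and 0.011, so the numbers do not pair them. In the Crabp1 gate, crossing the numbers, added after seeing the data, called 105 genes, 0 members and 1 list gene.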

Other observations

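The 4013 cells past both the Cdh5 and the Hapln1 threshold, which were in neither gate, were read on their own. On the scale of all UMIs and over the 4 libraries, Stard4 was at 27.7 ± 0.850 CPM (SD, n = 4), Insig1 at 23.3 ± 1.58, Srebf2 at 24.8 ± 3.41 and Npc2 at 252 ± 6.56. Over all kept cells of a library the same genes were at 16.8 ± 1.17, 24.4 ± 3.15, 31.4 ± 2.30 and 183 ± 9.44 CPM. In the Cdh5 and Hapln1 gates, on the TMM scale, they were at 27.7 and 26.7 (Stard4), 27.9 and 22.3 (Insig1), 27.3 and 20.9 (Srebf2) and 222 and 235 CPM (Npc2), near the values of the cells past both thresholds. Srebf2 in these cells was at 21.8 and 22.3 CPM in the Wt libraries and at 29.1 and 26.1 CPM in Ho1 and Ho2. Srebf1 was also higher in both Ho libraries, while Abca1 and Npc1 were lower in both. None of these differences was tested. The share of all genes that did the same was not tabulated for these cells, so nothing is read from them. Insig1 was at 22.3, 25.2, 24.0 and 21.8 CPM, and its libraries overlapped.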
